A study of Nematostella vectensis with 136 samples.

Results

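The genes described here are the 100 expressed genes of *Nematostella vectensis*, the starlet sea anemone, whose levels differed most between replicate libraries. Levels are CPM, each count divided by the total of its library and scaled to 1000000, on the scale log2(CPM + 2). Of 24384 genes in the deposited table, 5171 had a median of at least 20 CPM, and 4400 of those also had an absolute correlation below 0.3 with NVE12125, a gene that marks another pattern of variable genes in these libraries. For each of the 4400, the standard deviation (SD) was pooled within the 34 groups of one light regime and one time point. The members were chosen by this SD, as the 100 genes with the highest, so it is given as a description and carries no test. The files do not pair the identifiers with gene names or positions, and the table of gene names at hand matched 0 of the identifiers, so the genes are described by identifier, level and pattern alone.

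RNA came from whole adult animals that had spent 1 month in one of 2 regimes, LD with a cycle of light and dark or DD with darkness throughout. Collections were 4 h apart, from T1 to T17, with 4 lettered replicates per arm and time point, or 136 libraries in all. T1 to T6 are the first day; from T7 to T17 the LD arm no longer had its cycle, and the DD arm went on in darkness. The labels do not give strain, sex, parentage or the number of animals behind a replicate. Because nothing says that replicates came from separate animals or cultures, p-values measure only the spread between these libraries.

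The starlet sea anemone is an estuarine anthozoan that reproduces both by gametes and by dividing its body, and its locomotion and part of its gene expression follow light. Replicate libraries differ through counting error, which shrinks as counts grow, and through differences between the RNA samples, which do not shrink with depth. A gene with many counts and a high replicate SD is therefore one whose share of the counts differed by more than counting error.

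Library totals over all 136 libraries had a median of 538017. The 3 libraries with the lowest totals were left out of the description, which leaves 67 LD and 66 DD libraries with totals from 207665 to 749294. No pair of libraries in the same group stood out as a repeat, but the counts of LD T10 replicate D and DD T10 replicate A, from opposite arms, differed least of all 8778 library pairs, with a mean chi-square per gene of 1.25 against a median of 8.11. That value lies above the 1 that counting error alone gives, and the lowest value for a pair within a group was 3.73. Both libraries carry consecutive sample numbers in the labels. Whether they hold RNA of one source was not tested, and results of tests are given with and without them.

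The SD of the members ranged from 1.46 to 3.37 with a median of 1.90, against a median of 0.45 over the other 4300 genes. Counting error alone would have given the members a median SD of 0.24, and their SD was a median of 8.53 times that value, against 1.60 times for the other genes. The last genes inside the list were NVE1505 and NVE2561, with SDs of 1.47 and 1.46, and the first outside it were NVE25138 and NVE18256, with SDs of 1.44 and 1.44, so the list ends in a continuum. The members were of middling abundance, with median levels from 20.8 to 1449 CPM, and together held between 1.21% and 2.59% of the counts of a library.

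Most members dropped to near 0 in part of the libraries. A library is called low for a gene here when the level lies below 10% of that gene's median over libraries. A member was low in a median of 21.5 of these libraries, with a range from 1 to 59, and 98 of 100 members were low in at least 5 libraries, against 61 of the other 4300 genes, or 1.42%. The exceptions were NVE13626 and NVE15026, whose highest levels, 1254 and 1031 CPM, lay far above their medians. Such high levels were not confined to these genes. NVE6906 reached 1973 CPM at a median of 148.1 CPM, and NVE4900 reached 1208 CPM at a median of 36.3 CPM, each with 5 low libraries. How much of a member's spread lies in low and how much in high libraries was not tested. All of this describes the values that chose the members. In 86 members at least 1 library held 0 counts. In whole animals, fewer cells of a type and less RNA per cell cannot be told apart. How reads shared between similar genes were handled is not given either.

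NVE4465 had the highest SD, 3.37. In LD its level ranged from 0 to 518.8 CPM with a median of 153.4, and in DD from 0 to 585.2 CPM with a median of 178.6. Both arms therefore spanned the whole range, and within each arm the libraries fell on either side of an empty stretch. No library had a level between 5.52 and 74.9 CPM, and 53 libraries lay below that stretch, 30 of them in LD and 23 in DD. In 27 of the 34 groups low and not low libraries stood side by side. In 1 group, LD T14, every library used was at 0 counts, and 1 of its 4 libraries was among those left out.

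NVE18617, next by SD with 3.02, ranged from 0 to 670.6 CPM in LD, median 229.9, and from 0 to 651.1 CPM in DD, median 224.4. It was low in 18 libraries of each arm, and no level lay between 6.18 and 44.2 CPM. NVE20047, with an SD of 2.96, ranged from 0 to 301.5 CPM in LD, median 107.2, and from 0 to 337.2 CPM in DD, median 102.8. It was low in 24 LD and 22 DD libraries. In both genes the arms overlapped throughout, and the low libraries were spread over 25 and 27 mixed groups.

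NVE14982, with an SD of 2.94 and named after its values were seen, shows the same pattern at high counts. It was not at 0 in any library. It lay between 2.77 and 24.8 CPM in 27 libraries, 13 in LD and 14 in DD, and at 346.2 CPM or more in all others. Those others were cut at their largest inner gap, 0.30 on the log2 scale. Below the cut, 70 libraries had at most 1566 CPM, with a median of 1373. Above it, 36 had at least 1927 CPM, with a median of 2514, 20 of them in LD and 16 in DD. Such a cut can be made in any gene, so separate levels are not shown by it. The members with most libraries at 0 counts were NVE14880, with 53, and NVE8482 and NVE21340, with 45 each.

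**Figure D1:**
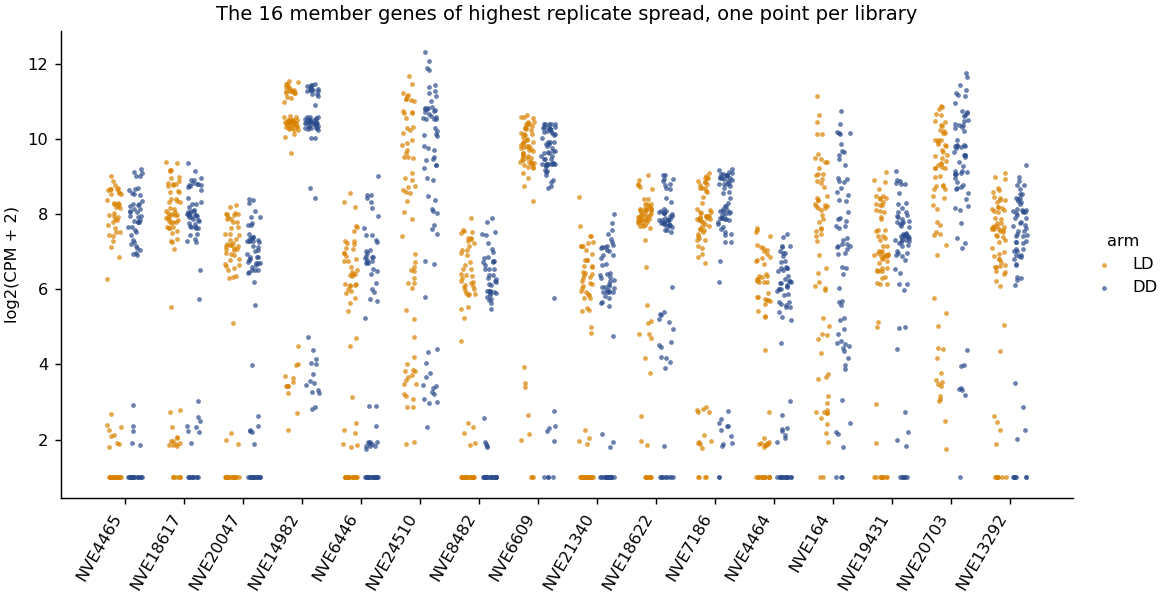
Level of the 16 members of highest replicate SD in every library, as log2(CPM + 2), with LD libraries in orange and DD libraries in blue and 1 point per library. In most of these genes points sit in separate bands that hold libraries of both arms, while NVE24510 and NVE164 have no gap of 1 or more; 0 counts lie at 1 on this axis.

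An empty stretch of this kind was common among the members. With at least 5 libraries on either side, 40 of 100 members had a gap of 1 or more on the log2 scale in their sorted levels, against 13 of the other 4300 genes, or 0.302%. A gap of 2 or more was present in 16 members and in 1 of the other genes. The share of members with mixed groups was high: a member had low and not low libraries side by side in a median of 17 of 34 groups, and 8 members had a group in which every library was low, in each case 1 group. Low libraries were found in both arms for 98 members.

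Neither depth nor the number of genes detected tracked the members. Across the libraries used, the correlation of a member with the log of the library total lay between -0.22 and 0.27, and with the number of genes detected between -0.26 and 0.24. Of the 100 members, 6 to 30 were low in any library, with a median of 17. The fewest were in LD T10 replicate D, with 6, and the most in LD T14 replicate A, with 30.

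**Figure D2:**
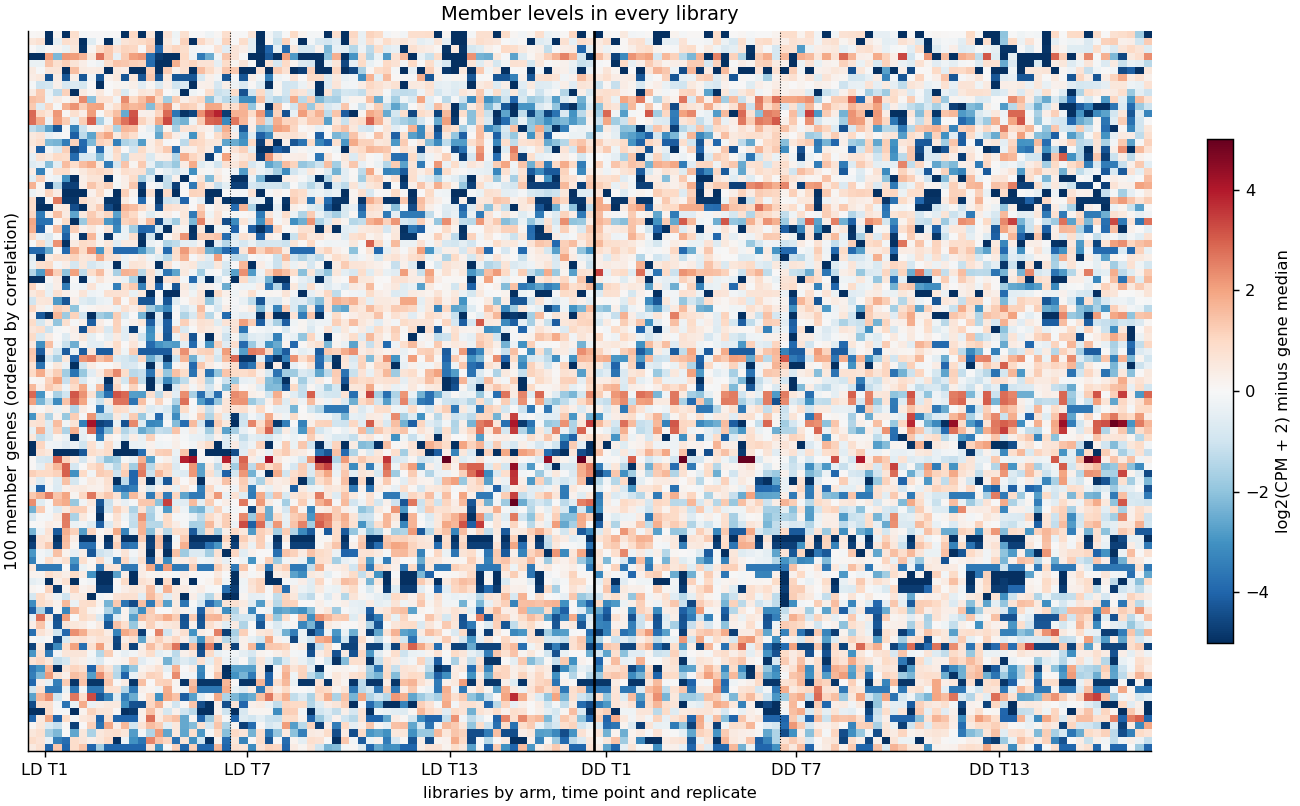
Level of the 100 members (rows, ordered by correlation) in the libraries used (columns, LD left of the thick line and DD right of it, by time point and replicate), as log2(CPM + 2) minus the median of the gene, with dotted lines between T6 and T7. Dark blue cells, the low libraries, are scattered over both arms and all time points, and a library has between 6 and 30 of them by the 10% limit.

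Most pairs of members were weakly correlated, as were most pairs of other genes. Over the 4950 pairs of members, the correlation of their deviations from the group means had a median of 0.005, and 95.8% of pairs lay between -0.3 and 0.3, against 96.7% of all pairs among the 4400 genes. The points of each correlation are the same libraries and share their depth. Above 0.5 lay 21 pairs, or 0.424%, against 0.160% of all pairs among the 4400 genes, and below -0.5 lay 8 pairs, or 0.162%, against 0.00908%. Counting error weakens a correlation and was a smaller part of the members' SD, so these contrasts are partly set by the choice. Joined by average linkage at a correlation of 0.5, 32 members fell into 15 sets and 68 stayed alone. Of these sets 2 held 3 genes each and the other 13 were pairs.

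The first set of 3 genes held NVE18617, NVE22656 and NVE18622, with correlations between 0.54 and 0.67. All 3 genes were low in 19 libraries, 9 in LD and 10 in DD, and 1 or 2 of them in 31 more. In LD T15 replicate A and in DD T15 replicate B all 3 were at 0 counts, in opposite arms at one time point. NVE22656 ranged from 0 to 176.8 CPM in LD, median 51.9, and from 0 to 144.1 CPM in DD, median 51.6. The genes outside the list closest to the mean of the set were NVE13338, with a correlation of 0.65 and a median of 6.95 CPM, and NVE18616, with 0.47 and 41.5 CPM.

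The second set of 3 genes held NVE4897, NVE4899 and NVE2561, with correlations between 0.61 and 0.88. NVE4897 ranged from 0 to 1605 CPM in LD, median 268.4, and from 0 to 1291 CPM in DD. NVE4899 ranged from 0 to 380.3 CPM in LD, median 38.3, and from 0 to 163.7 CPM in DD, median 26.2. These genes had few low libraries, 4 with all 3 genes low. NVE4897 had no level between 4.08 and 19.3 CPM, with 5 libraries below that stretch, while the largest gaps of NVE4899 and NVE2561 were 0.82 and 0.30 on the log2 scale. NVE4900, a member close to NVE4897 and NVE4899 by identifier, stayed alone by average linkage. Its correlation was 0.68 with NVE4897 and 0.565 with NVE4899. Outside the list, NVE2554 and NVE2557 were closest to the mean of the set, with correlations of 0.78 and 0.69.

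The closest pair of all was NVE4465 and NVE4464, neighbours by identifier, at a correlation of 0.97. The correlation was 0.98 among LD and 0.96 among DD libraries. Both were low in 52 libraries, NVE4465 alone in 1 and NVE4464 alone in 0. NVE14792 and NVE14796 followed with 0.90. NVE21950 and NVE15920, whose identifiers lie far apart, reached 0.81. These pairs were chosen after their values were seen.

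Co-variation was more frequent between neighbouring identifiers. Of the 13 pairs of members whose identifier numbers lie within 10 of each other, 6 had a correlation above 0.5, or 46.2%, and 2 had one below -0.5. All pairs among NVE4897, NVE4899 and NVE4900 are part of these 6, so the 6 pairs are not independent. Among the 4400 genes, 2.07% of pairs within 10 lay above 0.5. The gene of highest correlation, searched over 16258 genes with a median of at least 1 CPM, lay within 10 identifiers for 21 members, or 21.0%, against 3.81% of the other 4300 genes and 0.0810% of all pairs. Its correlation was above 0.7 for 40 of 100 members, against 12.1% of the other 4300 genes. The SD of a member was a median of 8.53 times counting error, against 1.60 times for the other genes. Counting error weakens a correlation, so the contrasts with other genes are partly set by the choice of members by SD. What identifier order means for position is not given in the files, and the handling of reads shared between similar or overlapping genes, and of strand, is not given either, so whether neighbours share reads was not tested.

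Some members were high where others were low. NVE8482 and NVE8481, neighbours by identifier, had a correlation of -0.66. NVE8482 alone was low in 55 libraries, NVE8481 alone in 26, neither in 52, and both in 0. Where NVE8482 was low, NVE8481 had a median of 95.6 CPM, against 46.7 CPM where neither was low, a ratio of 2.05. Where NVE8481 was low, NVE8482 had a median of 155.9 CPM, against 68.4 CPM, a ratio of 2.28. The 3 kinds of library were found in both arms, with 28, 15 and 24 in LD and 27, 11 and 28 in DD. The sum of both genes never fell below 22.9 CPM, and its replicate SD was 0.54, against 2.77 and 2.06 for the genes alone.

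NVE10586 and NVE21216, whose identifiers lie far apart, had a correlation of -0.64. NVE10586 alone was low in 31 libraries, NVE21216 alone in 20, neither in 82 and both in 0. NVE21216 had a median of 75.8 CPM where NVE10586 was low and of 36.8 CPM where neither was. The replicate SD of their sum was 0.40, against 1.94 and 1.55. All 8 pairs of members with a correlation below -0.5 had a sum with a smaller SD than either gene, and in 6 of them no library was low in both. These pairs were picked for opposed values, so both counts are partly set by the choice.

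Opposed genes were also found outside the list. NVE7186 was at or below 5.35 CPM in 27 libraries, and there NVE7184, close to it by identifier, had a median of 1393 CPM, against 867.0 CPM in the other 106 libraries. The replicate SDs were 2.59 and 0.36, and 0.20 for the sum. NVE9664 was low in 19 libraries, in which NVE11721 ranged from 302.9 to 424.3 CPM, against a median of 123.0 CPM in the other 114. The sum of that pair had an SD of 0.20, against 2.26 and 0.94. For 63 members the most opposed of the 16258 genes had a correlation below -0.5, against 15.5% of the other 4300 genes. Counting error, a larger part of the SD of the other genes, weakens such correlations as well. Partners were picked for opposed values. A smaller SD of the sum and a lack of libraries low in both are therefore partly set by the choice. Of the 56 members whose most opposed gene had a median of at least 20 CPM, 40 had a sum with a smaller SD than either gene, and in 53 no library was low in both. Some of these partners, such as NVE7184 and NVE11721, were low in 0 libraries, so no library could be low in both there.

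**Figure D3:**
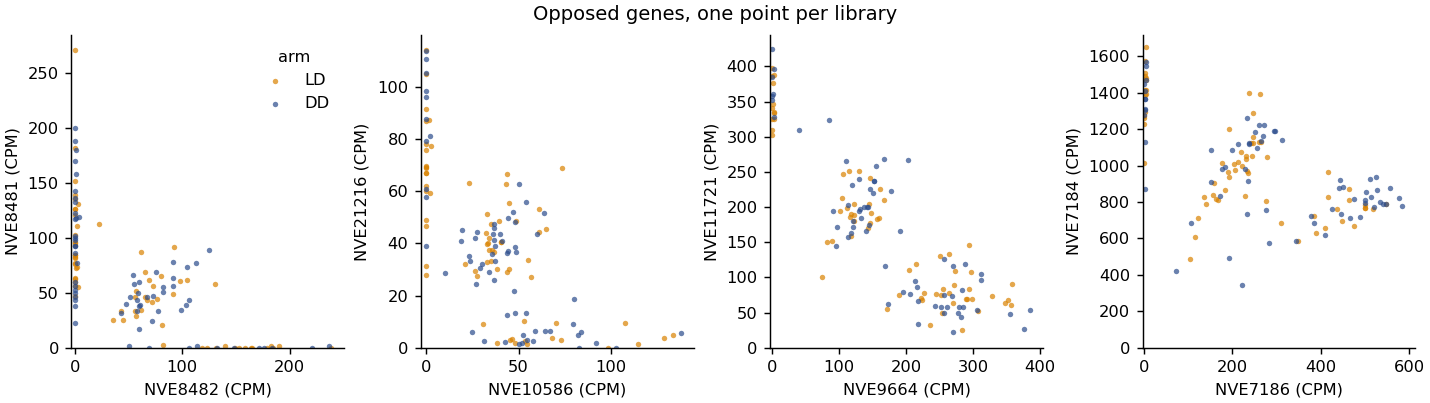
CPM of 4 pairs of opposed genes, 1 point per library, LD in orange and DD in blue. Points fall along a falling line, with the gene on the horizontal axis near 0 or neither gene low. The pairs NVE8482 with NVE8481 and NVE10586 with NVE21216 also have libraries with only the other gene low. NVE11721 and NVE7184 were low in 0 libraries. Each kind of library is found in both arms. The first panel has 55 libraries with NVE8482 low, 52 with neither gene low and 26 with NVE8481 low.

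Over the members as a whole, libraries of one group were no more alike than libraries of different groups. The correlation of 2 libraries over the 100 members, each centred on its mean, had a median of -0.016 within groups and of -0.018 between them. The members were chosen by their spread within groups, so this lack of likeness is partly set by the choice. Over the 200 genes that follow the members by SD, the medians were 0.060 within groups and -0.016 between them. Over the remaining 4100 genes they were 0.082 and -0.015. A few libraries had nearly the same member profile. In 16 of 8778 pairs the correlation was above 0.7, between 0.76 and 0.97, while the next highest was 0.66. None of the 16 lay within a group, 11 joined an LD with a DD library and 5 lay within an arm. They linked 26 libraries into 12 sets, 10 pairs and 2 sets of 3, and 9 sets held both arms.

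The closest were LD T2 replicate A and LD T4 replicate B, at a correlation of 0.97. NVE4465 had 518.8 and 409.7 CPM in them, NVE18617 383.6 and 386.6 CPM, NVE20047 0 CPM in both, and NVE14982 8.72 and 9.62 CPM. The other replicates of LD T2 had NVE14982 at 2454, 1322 and 1394 CPM. One set of 3 held LD T7 replicate D, LD T13 replicate D and DD T14 replicate D, with correlations from 0.90 to 0.95. The other held LD T4 replicate C, LD T5 replicate A and DD T7 replicate B, with correlations from 0.78 to 0.92. LD T10 replicate D and DD T10 replicate A formed a pair at 0.91.

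In the 16 close pairs a median of 4.5 members was low in one library only, against 27 in all other pairs. The likeness went beyond the members. Over the 200 genes that follow them by SD, which did not choose the pairs, the correlations of these pairs lay between 0.40 and 0.85 with a median of 0.55. The other pairs had a median of -0.015 and a range from -0.39 to 0.65, so the ranges overlap. Over the remaining 4100 genes the 16 pairs lay between 0.017 and 0.48, with a median of 0.22. The other pairs lay between -0.315 and 0.44 there, with a median of -0.014. Apart from LD T10 replicate D with DD T10 replicate A at 1.25 and LD T2 replicate A with LD T4 replicate B at 2.24, no pair had a chi-square per gene below 3.41. What the RNA samples of such libraries have in common was not tested. The limit of 0.7 was set after the correlations were seen.

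**Figure D4:**
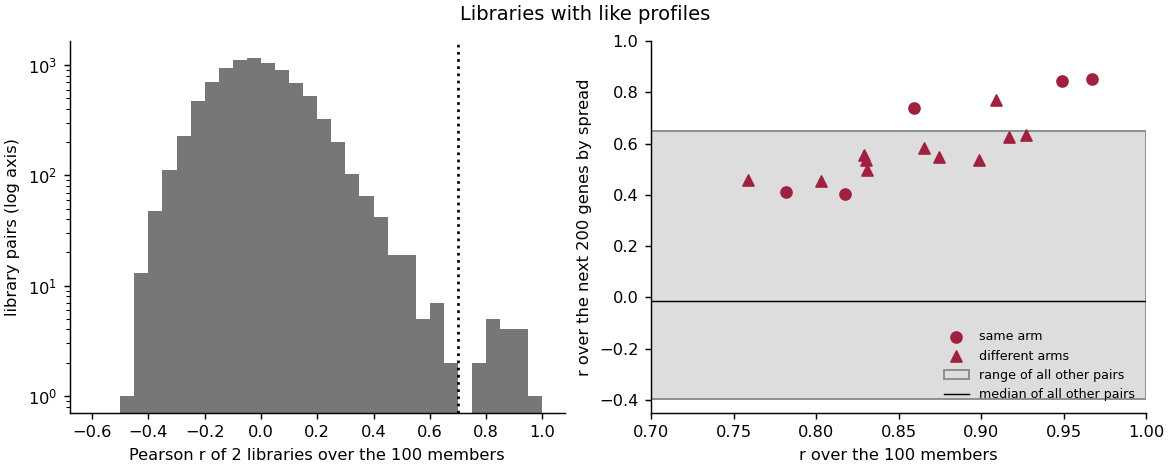
Left, number of library pairs (log axis) by their correlation over the 100 members, with the limit of 0.7 dotted. Right, the 16 pairs above the limit by their correlation over the members and over the next 200 genes by SD, with circles for pairs of one arm and triangles for pairs of both arms, and the range of all other pairs in grey. The 16 pairs stand apart from the rest on the left. On the right all lie above 0.40, several of them inside the grey range.

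The members' variance was split into parts within groups, between time points and between arms. The members were chosen by their spread within groups, so a high within-group share is partly set by that choice and is given as a description. Within-group differences held a median of 75.0% of a member's sum of squares, with a range from 41.4% to 85.5%, against 68.2% for the other genes. The within-group part holds 75.0% of the degrees of freedom, so the median is the share that groups without any difference would give. Differences between time points, with 24.2% of the degrees of freedom, held a median of 23.8%, and the difference between the arms one of 0.361%. Over the members, the median SD was 1.97 within LD groups and 1.87 within DD groups. It was larger in LD for 59 of 100 members, against 52.1% of the 4400 genes.

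Low members were somewhat more frequent in LD libraries. An LD library had a median of 19 low members, with a range from 6 to 30, and a DD library a median of 16, with a range from 7 to 25. The ranges overlap, and values are a description without a test. On the first day the medians were 21 in LD and 13.5 in DD, and after removal 18 and 17. By sequencing lane, which the labels give as lane 5 for T1 to T12 and lane 7 for T13 to T17, the medians were 19 and 18 in LD and 15 and 19.5 in DD. The first-day gap therefore lies in lane 5 only, as all of T1 to T6 do. More libraries were low in LD than in DD for 60 members, fewer for 29. The gene with the largest arm share, NVE4155 at 9.60%, was low in 28 LD and 6 DD libraries. In edgeR's quasi-likelihood test its arm difference did not pass either on the first day, with a log2 difference of -0.84 ± 0.52 (SE) and an adjusted p of 0.70, or after removal, with -0.15 ± 0.38 and 0.90.

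Differences between group means were tested with edgeR's quasi-likelihood test in all 136 libraries over 10257 genes. Benjamini-Hochberg adjustment was over all of them, with a threshold of 0.05. The SD that ranked the members does not use group means, but the limits on level and on correlation with NVE12125 use values across groups. The tested genes include genes outside those limits, so members and all tested genes differ in more than spread. All 100 members were among the genes tested. A standard error was larger for the members, so a difference had to be larger to pass. On the first day its median was 0.45 on the log2 scale, against 0.18 over all tested genes, and after removal 0.34 against 0.13. The members were chosen by the spread that enters this error, so a lower share of members called is partly set by the choice.

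On the first day, LD against DD over T1 to T6, 0 members passed, where 0.575% of all tested genes did. At an unadjusted p of 0.05, 5 members passed, or 5.0%, against 8.38% of all tested genes. DESeq2 and limma-voom also called 0 members, where they called 91 and 52 of all tested genes. The smallest adjusted p of a member was 0.17, and the log2 differences of the members ranged from -1.08 to 1.59, so differences of this size did not pass at this spread.

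After removal, LD against DD over T7 to T17, 3 members passed, where 8.42% of all tested genes did. Of the members 1 was higher in LD and 2 were lower, against 5.75% and 2.67% of all tested genes. Higher in LD were 68.3% of all genes called, which became 85.8% with RLE factors in place of TMM, 82.1% with library size alone and 44.2% with limma-voom. NVE4899, of the second set of 3 genes, ranged in LD from 0 to 380.3 CPM over T7 to T17, median 48.04, and in DD from 0 to 163.7 CPM, median 24.5. It was higher in LD by 0.99 ± 0.29 (SE) on the log2 scale, adjusted p 0.020, with all DD levels inside the LD range.

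NVE23371 ranged in LD from 0 to 174.2 CPM, median 28.1, and in DD from 0 to 285.7 CPM, median 61.6. It was lower in LD by a log2 difference of -1.45 ± 0.43, with an adjusted p of 0.019 in edgeR's test, and it was low in 11 of 43 LD and 7 of 44 DD libraries. NVE21250 ranged from 0 to 119.0 CPM, median 13.0, in LD and from 0 to 239.5 CPM, median 30.4, in DD, a log2 difference of -1.04 ± 0.31 with an adjusted p of 0.021 in edgeR's test. The arms overlapped in all 3 genes, and the members' share lay below that of all tested genes.

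These 3 calls were not stable. With limma-voom 0 members passed, where 405 of all tested genes did. The limma-voom adjusted p-values were 0.53 for NVE4899, 0.19 for NVE23371 and 0.069 for NVE21250, at log2 differences of 0.45, -1.32 and -1.13. Leaving out replicate C or D of every group also left 0. With 1 library kept of each set of close libraries, the log2 difference of NVE4899 was 0.51 with an adjusted p of 0.42 in edgeR's test. That of NVE23371 was -1.32 with 0.11, and that of NVE21250 was -1.34 with 0.019, which passed. Without LD T10 replicate D and DD T10 replicate A all 3 passed. Within lane 5 and lane 7 alone the log2 differences were 1.08 and 0.87 for NVE4899, -1.42 and -1.48 for NVE23371, and -0.96 and -1.14 for NVE21250. For the change of the arm difference at removal 0 members passed in edgeR, DESeq2 and limma-voom, where 0.273% of all tested genes did in edgeR, and 6 members passed at an unadjusted p of 0.05, or 6.0%, against 8.39%.

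Any difference among the 17 LD time points was called for 3 members, where 16.0% of all tested genes were called. These were NVE13626 with an adjusted p of 0.0040, NVE910 with 0.0080 and NVE4900 with 0.029 in edgeR's test. NVE13626 is one of the members with high rather than low libraries. Its LD group medians lay between 8.79 CPM at T3 and 487.3 CPM at T9, and at T17 single libraries ranged from 19.7 to 1254 CPM, so the libraries of one group differed as much as the group medians did. NVE910 had LD group medians from 264.7 CPM at T6 down to 8.10 CPM at T15. Its LD levels ranged from 3.97 to 537.7 CPM on the first day, median 128.0, and from 0 to 416.3 CPM afterwards, median 40.6, and the periods overlapped. With limma-voom 1 member, none of these 3, passed in LD, where 1077 of all tested genes did. The limma-voom adjusted p-values of these 3 members were 0.44, 0.16 and 0.51. Without replicate C of every group they were 0.062, 0.057 and 0.23 in edgeR's test. Within lane 5 alone they were 0.012, 0.51 and 0.30.

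Any difference among the 17 DD time points was called for 2 members, where 2.8% of all tested genes were called: NVE1808 with an adjusted p of 0.0082 and NVE13626 with 0.021 in edgeR's test. NVE1808 stood apart from the other members in that time held 57.6% of its sum of squares and within-group differences 41.4%, the lowest among the members. In DD its group medians were 2218 CPM at T1 and 4102 CPM at T9, and fell to 164.8 CPM at T12 and 59.3 CPM at T16. At T9 the 4 DD libraries had 3451 to 5918 CPM and at T16 from 2.29 to 136.9 CPM, without overlap. In LD the group medians were 5253 CPM at T2 and 128.9 CPM at T15.

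The course of NVE1808 in LD did not pass in edgeR, with an adjusted p of 0.070, and its arm by time interaction had an adjusted p of 0.74, so a difference between the arms is not shown. With limma-voom its course in DD passed with an adjusted p of 0.00030, the same test in which NVE13626 had 0.90. Within lane 5 (T1 to T12) alone the adjusted p of NVE1808 in DD was 0.16 in edgeR, and within lane 7 (T13 to T17) alone 0.52, so the call joins both lanes. Without replicate B, C or D of every group it was 0.24, 0.10 and 0.37. Without LD T10 replicate D and DD T10 replicate A it was 0.011. For NVE13626 in DD it was 0.17 without replicate A and 0.054 without replicate D.

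For the arm by time interaction 0 members passed in edgeR, DESeq2 and limma-voom, where 1.16% of all tested genes did in edgeR. At an unadjusted p of 0.05, 3 members passed, or 3.0%, against 10.9%. In every comparison, the share of members past an unadjusted p of 0.05 in edgeR's test was below that of all tested genes. It was 16.0% against 20.7% for the arms after removal, 9.0% against 27.9% for time in LD and 7.0% against 14.3% for time in DD. The test weighs a difference against the spread within groups, which chose the members, so these lower shares are partly set by the choice.

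**Figure D5:**
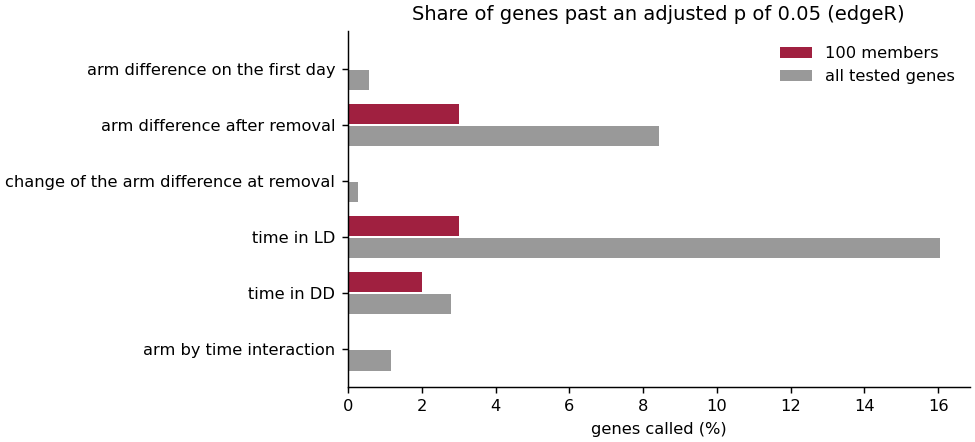
Share of the 100 members (red) and of all 10257 tested genes (grey) past an adjusted p of 0.05 in edgeR's quasi-likelihood test, by comparison. The members' share is 0 in 3 comparisons and at most 3%, below that of all tested genes in each. The members were chosen by their spread within groups, so a lower share is partly set by that choice. All tested genes also include genes outside the limits on level and on correlation with NVE12125.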

How the data were processed

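Members, gene lists and tests were chosen with earlier results of these data known. The authors deposited raw counts of 24384 genes in 136 libraries as 1 table, without normalization. Per the submitters' processing notes Bowtie2 was used, and per the labels the genome is that of Putnam et al.; gene models, counting tool, strand setting and treatment of shared reads were not given in the sources used here. CPM and log2(CPM + 2) were computed from the deposited counts with unscaled library totals. Groups (arm and time point) came from the labels, and the 3 libraries of lowest total were left out of all but the tests.

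edgeR 4.0.16 (R 4.3.3) was run on all 136 libraries (filterByExpr, TMM, 34 group means with 102 residual degrees of freedom, glmQLFit and glmQLFTest), adjusted over 10257 genes. In simulated counts, drawn independently for each library, edgeR's single contrasts stayed near their nominal error rate. The tests over 17 time points and the interaction called unchanged genes too often. Close libraries and genes with an empty stretch in their levels were not simulated, so error rates for the members were not tested. Counts from limma-voom (limma 3.58.1) stand beside those of edgeR, but limma-voom was not run on simulated counts. DESeq2 1.42.0 was a further alternative, as were RLE factors, library size alone, no filter and no shallow libraries. Others were a robust fit, a replicate block, single lanes and each replicate letter left out. Genes were named by rule: highest SD, the edge of the list, sets of 3 and their closest genes, most libraries at 0, and up to 2 called members in each direction or, over time, with the smallest adjusted p. NVE4900, NVE6906 and the genes of the pairs were named after their values were seen. Depth, 207665 to 749294 counts per library used, puts counting error of a member at a median SD of 0.24 on the log2 scale.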

Additional observations from a re-analysis of the deposited data

Results flagged for a closer look

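In 93 groups of 4 libraries (34 or fewer groups for each of 3 measures), 11 had a library far from the other 3 by Dixon's 95% limit. Chance flags about 1 in 20 groups of normally distributed values. All 3 measures were built from the members. These were chosen by their spread within the same groups, so the flags are partly set by that choice. They are a description, and the rate of 1 in 20 is no yardstick for them. The measures were the number of low members and the scores of both sets of 3 genes, a score being the mean over the genes of log2(CPM + 2) minus the gene's median.

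For the first set (NVE18617, NVE22656, NVE18622), single libraries lay far below the others of their group in LD T7 replicate A (score -5.50, nearest other -0.036), DD T7 replicate A (-5.86, nearest -0.057), LD T11 replicate C (-5.85, nearest -0.83), LD T15 replicate A (-6.13, nearest 0.11) and DD T15 replicate B (-6.13, nearest 0.11). In DD T13 replicate A the score was 1.05 while the nearest other was -5.41. For the second set (NVE4897, NVE4899, NVE2561), the low libraries were DD T2 replicate D (-1.96, nearest 0.11), LD T6 replicate A (-1.75, nearest 0.61), LD T9 replicate B (-2.65, nearest 1.38) and DD T14 replicate C (-4.48, nearest -0.28). In LD T4, replicate B had 21 low members and the other 3 libraries 22 each, a difference of 1 gene.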

How the results depend on the processing

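Members called were 0 under every alternative run for the first-day arm difference, its change at removal and the interaction. After removal the count of 3 became 5 with DESeq2, 0 with limma-voom and 0 in lane 7 alone, and 0 to 3 when leaving out a replicate letter. For time in LD the count of 3 became 5 with DESeq2, 1 with limma-voom, 0 in lane 7 alone and 5 with 1 library of each close set, and 1 to 3 when leaving out a letter. Over all tested genes the 1646 calls became 1969, 1077, 1, 1584 and 1051 to 1307. For time in DD the count of 2 became 4 with DESeq2, 1 with limma-voom, and 0 in lane 5 or lane 7 alone, and 0 to 2 when leaving out a letter. Lane and letter fits use fewer libraries; otherwise the cause was not tested. Counts over all tested genes moved by over 1.5 times too, as with limma-voom, from 864 to 405 after removal, 1646 to 1077 for time in LD and 119 to 4 for the interaction; over all alternatives they lay between 0 and 1.77 times the main count. Of 112 fits of the named calls, 76 passed, and 36 did not; none of the 48 that have a direction, those of the arm difference, changed it. Of the 100 members, 64 stayed with a minimum median of 50 CPM and 66 with the median absolute deviation, and 77 to 99 under the other alternatives, with 88 to 96 when leaving out a letter. The 6 members in sets of 3 or more became 3 with Spearman correlation, 3 at a joining limit of 0.4, 10 at 0.6 and 10 in LD alone, and 6 to 9 when leaving out a letter.

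The labels give the letters no shared source. Over the 4400 genes, same-letter libraries of different groups had a mean correlation of deviations of -0.00047, with 11.6% of pairs above 0.1. For different letters the mean was 0.00017. Over the members the means were -5.1e-05 for the same letter, with 26.4% of pairs above 0.1, and 7.2e-05 for different letters. The letters were not taken to pair libraries, by a rule that asked for every pair above 0.1. Such a rule is hardly ever met, so whether letters share a source was not tested. With the letter as a replicate block the members called were 0, 3, 0, 4, 3 and 0 for the 6 comparisons. Keeping 1 library of each close set, and leaving out LD T10 replicate D and DD T10 replicate A, were chosen after seeing the data. The latter gave 3, 3 and 3 member calls after removal, in LD and in DD, and 799, 1656 and 287 over all tested genes.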
